A study of Mus musculus with 10 samples.

Results

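The genes described are 6 mouse genes that are transcribed at the 2-cell stage, Zscan4c, Zscan4d, Zscan4f, Tcstv1, Tcstv3 and Zfp352, of 21938 protein-coding genes annotated on the chromosomes of mm10. They were chosen by name, and all 6 were found in the annotation. What was read at each gene was the presence of H3K4me3 and ATAC-seq peaks within 2 kb of its start, in its body and across its cluster. All samples came from F123, an F1 mouse embryonic stem cell (mESC) line from a cross of castaneus with S129/SvJae, with no treatment and no second genotype. The line was maintained on irradiated feeder fibroblasts and passaged once without them before harvest. The series holds 10 samples. The values given come from the 2 H3K4me3 ChIP-seq and the 2 ATAC-seq samples, each pair represented by 1 list of replicated peaks. No value therefore has a spread between replicates, the number of reads behind each list is unknown, and no test between groups was possible.

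Zscan4 genes encode proteins with zinc fingers that are made in a burst at the 2-cell stage, when the embryonic genome is first activated, and that bear on telomere length in ES cells. Tcstv1 and Tcstv3 are small genes of a family known from the same stage, and Zfp352 encodes a zinc finger protein and is switched on in the same window. In an ES cell culture these genes are active in a small, changing minority of cells, called 2-cell-like cells. The transcription factor Dux binds at and activates Zscan4, Tcstv and Zfp352 genes in those cells. H3K4me3 is a histone mark found at the starts of active and poised genes, and ATAC-seq reports DNA that is open to a transposase. Both assays average over all cells, so a mark in few cells and a weak mark in many cells cannot be told apart.

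The stretches before the starts of the 3 Zscan4 members are shown because they hold a sequence that Dux is known to recognise and because they show how alike the copies are. Each line reads 5′ to 3′ in the direction of the gene. Capitals mark the 11 letters TGATTNAATCA, the sequence in question, then GTCAGNCTGAC, and a TATAAA nearer to the start. The first pair are the only palindromes of 5 letters, any base and the reverse complement of the 5 that the 500 bases before all 3 starts share. Both read the same on either strand. Zscan4c lies on the plus strand and its line is chr7:11005405-11005704 (340 to 41 bases before the start). Zscan4d lies on the minus strand, chr7:11166199-11166498 (339 to 40 bases before), and Zscan4f on the plus strand, chr7:11397598-11397897 (317 to 18 bases before).
Zscan4c: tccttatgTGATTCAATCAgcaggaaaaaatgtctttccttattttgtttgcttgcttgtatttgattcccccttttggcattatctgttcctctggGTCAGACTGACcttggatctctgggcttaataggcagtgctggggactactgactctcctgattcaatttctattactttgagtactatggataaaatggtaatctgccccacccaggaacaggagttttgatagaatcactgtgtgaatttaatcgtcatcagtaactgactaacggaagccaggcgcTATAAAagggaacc
Zscan4d: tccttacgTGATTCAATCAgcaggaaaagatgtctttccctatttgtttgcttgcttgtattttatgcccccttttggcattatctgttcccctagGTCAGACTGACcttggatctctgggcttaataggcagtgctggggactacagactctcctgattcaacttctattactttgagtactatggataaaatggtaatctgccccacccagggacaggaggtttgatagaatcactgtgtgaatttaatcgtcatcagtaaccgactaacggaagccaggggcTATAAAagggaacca
Zscan4f: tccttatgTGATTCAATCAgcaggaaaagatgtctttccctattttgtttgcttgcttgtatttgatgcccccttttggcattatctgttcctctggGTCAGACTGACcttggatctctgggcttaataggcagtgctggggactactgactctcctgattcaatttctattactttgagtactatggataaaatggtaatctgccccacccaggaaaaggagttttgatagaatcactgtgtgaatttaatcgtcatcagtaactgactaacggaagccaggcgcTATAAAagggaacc
The Zscan4c and Zscan4f lines differed at 4 of 300 aligned bases (98.7% identical). Zscan4d was less like them, with 13 differences over 299 aligned bases from Zscan4c (95.7%) and 11 over 299 from Zscan4f (96.3%). Over the aligned bases of the genes, with gaps not counted, Zscan4c and Zscan4f were 99.4% identical. Of their 4803 and 4404 bases, 4381 were aligned. Zscan4c and Zscan4d were 97.2% identical over 4779 aligned bases, and Zscan4d and Zscan4f 97.1% over 4363. TGATTNAATCA was found in the 500 bases before the start of 19 coding genes (0.0866% of 21938), and 8 of the 19 were Zscan4 genes. It began 332 bases before Zscan4c, 331 before Zscan4d and 309 before Zscan4f, and was not found before Tcstv1 or Zfp352 in a window of that length. GTCAGNCTGAC was found in the same window of 16 coding genes (0.0729%), and began 243 bases before Zscan4c and Zscan4d and 220 before Zscan4f. Both palindromes were read from the sequence before the 3 Zscan4 members, so their presence there was fixed by the choice. A match of letters is a description and does not show that a factor was bound.

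The 250 bases before the start of Zfp352 are shown because they form an array of repeats and hold a run of letters also found before Tcstv1. Capitals mark TATAA and ACACACCTTTAAT, the longest word that this stretch and the 250 bases before Tcstv1 share. The line is chr4:90218570-90218819 on the plus strand, which is the strand of the gene.
Zfp352: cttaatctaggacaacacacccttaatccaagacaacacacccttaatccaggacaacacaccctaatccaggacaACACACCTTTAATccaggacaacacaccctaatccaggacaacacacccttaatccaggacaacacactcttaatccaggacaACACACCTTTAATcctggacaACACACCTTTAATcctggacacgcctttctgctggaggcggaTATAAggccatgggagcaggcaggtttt
ACACACCTTTAAT, searched on both strands in the 500 bases before the start, occurred once before Tcstv1 and 3 times before Zfp352, and before 116 coding genes (0.529%). The Zfp352 stretch was a tandem array in which ACAACACA occurred 9 times. TATAA, searched on both strands in the 100 bases before the start, was found before 2163 coding genes (9.86%). It began 54 bases before Zscan4c and Zscan4d, 31 before Zscan4f, 73 before Tcstv1 and 28 before Zfp352. These words were picked after the sequences had been seen.

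None of the 6 members had an H3K4me3 peak within 2 kb of its start, and none had one in its body. Over all coding genes 66.4% had such a peak at the start (14576 of 21938, 95% Wilson interval 65.8 to 67.1%) and 71.2% had one in the body. Among the 4784 coding genes as long as the members, from 1301 to 6883 bp, 52.3% had an H3K4me3 peak in the body. Only Tcstv1 had an ATAC-seq peak within 2 kb of its start (1 of 6), against 74.6% of coding genes (16366, interval 74.0 to 75.2%). No ATAC-seq peak lay in the body of a member, against 81.1% of coding genes and 60.2% of those of the members' lengths. With neither peak at the start, 5 of the members were in a class of 5464 coding genes (24.9%). Tcstv1 was in a class of 1898 genes (8.65%) with an ATAC-seq peak but no H3K4me3 peak. The intervals cover counting error over genes only.

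The nearest H3K4me3 peak lay over 500 kb away for 4 of the 6 members, a distance that 827 coding genes (3.77%) exceeded. For Zscan4c it was 509819 bp upstream, with 3.72% of coding genes farther from a peak. For Zscan4d the same peak was 670233 bp away (2.88% farther). For Zscan4f the nearest was 612537 bp away (3.15% farther), and for Zfp352 it was 529276 bp away (3.61% farther). Both Tcstv genes were closer. The nearest peak was 71281 bp from Tcstv1 (14.5% farther) and 3143 bp upstream of Tcstv3 (32.3% farther). By distance Tcstv3 was thus the member nearest to the mark and Zscan4d the farthest.

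**Figure D1:**
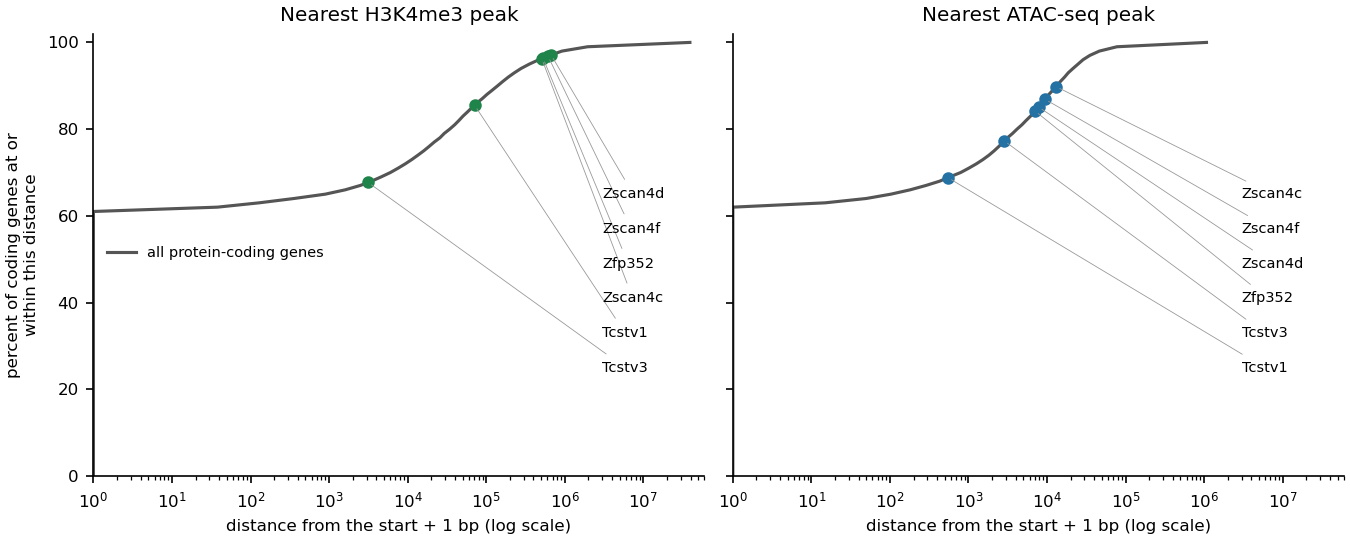
Cumulative percent of protein-coding genes (vertical axis) by the distance in bp from the start to the nearest H3K4me3 peak (left) or ATAC-seq peak (right), on a log scale with 1 bp added; points are the 6 members placed on the curve. For H3K4me3, Zscan4c, Zscan4d, Zscan4f and Zfp352 sit together beyond 500 kb while Tcstv1 and Tcstv3 sit lower, and for ATAC-seq all 6 lie within 13040 bp.

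ATAC-seq peaks lay closer to the members than H3K4me3 peaks did, in lists of 179109 and 33487 peaks. The nearest ATAC-seq peak was 13040 bp upstream of Zscan4c, 7798 bp downstream of the start of Zscan4d, and 9398 bp upstream of Zscan4f. It was 7017 bp upstream of Zfp352, 2849 bp upstream of Tcstv3 and 548 bp upstream of Tcstv1. Over all coding genes the median distance was 0 bp for both kinds of peak, and 90% had an ATAC-seq peak within 13400 bp. The share of coding genes farther from an ATAC-seq peak ran from 10.2% for Zscan4c to 31.2% for Tcstv1.

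Reads from near-identical copies are hard to assign, so each window was also described by the share of its 50-base words that occur once in mm10. Within 2 kb of the start that share was 17.1% for Zscan4c, 15.2% for Zscan4f and 57.1% for Zscan4d. It was 53.5% for Tcstv1, 58.9% for Tcstv3 and 80.8% for Zfp352, against a median of 98.5% and a lower quartile of 95.5% over all coding genes. The median word around Zscan4c and around Zscan4f occurred 4 times in the genome. Of 814 coding genes with under 20% unique words, the class of Zscan4c and Zscan4f, 1.60% had an H3K4me3 peak at the start and 22.0% an ATAC-seq peak. Of the 535 genes with 20 to under 60%, the class of Zscan4d, Tcstv1 and Tcstv3, 13.6% and 33.5% did. Of the 1724 genes with 60 to under 90%, the class of Zfp352, 34.9% and 48.9% did, and of the 18865 genes with 90% or more, 73.6% and 80.4% did. What part the copies had in the missing peaks was not tested. The read lengths and the treatment of reads with several matches are not given in the sources used here, and the number of copies in the castaneus and S129/SvJae genomes was not analysed here.

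The starts of the members were also poor in CpG, the dinucleotide that is dense at the starts of many genes that carry H3K4me3. The ratio of observed to expected CpG within 500 bp of the start was 0.104 for Zscan4c, 0.151 for Zscan4d, 0.102 for Zscan4f, 0.114 for Tcstv1, 0.0903 for Tcstv3 and 0.152 for Zfp352. The median over coding genes was 0.552. Among the 3535 coding genes with a ratio no higher than that of Zfp352, the highest of the members, 5.32% had an H3K4me3 peak at the start and 19.5% an ATAC-seq peak. Among the other 18403 the shares were 78.2% and 85.2%. Of the CpG-poor genes with at least 60% unique words (2913), the class of Zfp352, 6.35% had H3K4me3 at the start and 21.6% had an ATAC-seq peak there. By number, 185 of the 188 CpG-poor genes with H3K4me3 and 629 of the 688 with an ATAC-seq peak were in that class. Few were thus left among CpG-poor genes with under 60% unique words, the class of the Zscan4 and Tcstv members. The bound on CpG was set from the members after their values were seen. These classes overlap and their parts in the result cannot be told apart for the Zscan4 and Tcstv genes, which fall in both.

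**Figure D2:**
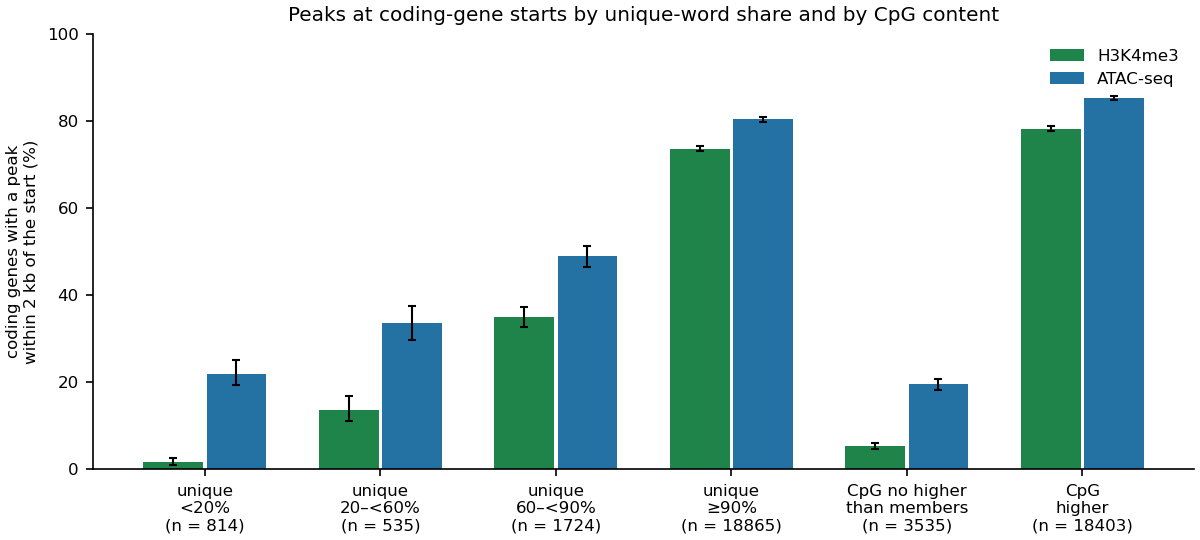
Percent of coding genes that had a peak of H3K4me3 (green) or of ATAC-seq (blue) within 2 kb of the start, by the share of unique 50-base words around the start and by CpG ratio; bars start at 0 and error bars are 95% Wilson intervals. H3K4me3 falls from 73.6% in the most unique class to 1.60% in the least, and is 5.32% in the genes as CpG-poor as the members.

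The Zscan4 cluster, from Zscan4a to Zscan4-ps3 (chr7:10794242-11614112), spans 820 kb and holds 9 Zscan4 genes. With 50 kb on either side it had 35.5% unique words. This region held 0 H3K4me3 peaks, against 16.8 per Mb over chromosome 7 and 12.6 per Mb over the genome. Rates are per Mb of known sequence, whether it is unique or not. The stretch without an H3K4me3 peak was longer than the cluster. It ran for 1514525 bp (1.51 Mb) and took in the starts of 18 coding genes. Of 33428 stretches between neighbouring H3K4me3 peaks in the genome, 174 (0.521%) were longer. That share counts each stretch once whatever its length, so it is not a share of bases or of genes. The 3 nearest coding genes on each side of the cluster were the pheromone receptor genes Vmn1r70, Vmn1r71, Vmn1r72, Vmn1r73 and Vmn1r74 and the gene Nlrp4b. These 6 neighbours had 92.9 to 100% unique words, and none had an H3K4me3 peak at the start. Of the same 6, only Nlrp4b had an ATAC-seq peak at the start. The other 6 Zscan4 genes, Zscan4a, Zscan4b, Zscan4e, Zscan4-ps1, Zscan4-ps2 and Zscan4-ps3, had neither peak at the start. Their unique share ran from 16.0% in Zscan4e to 72.8% in Zscan4-ps1.

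**Figure D3:**
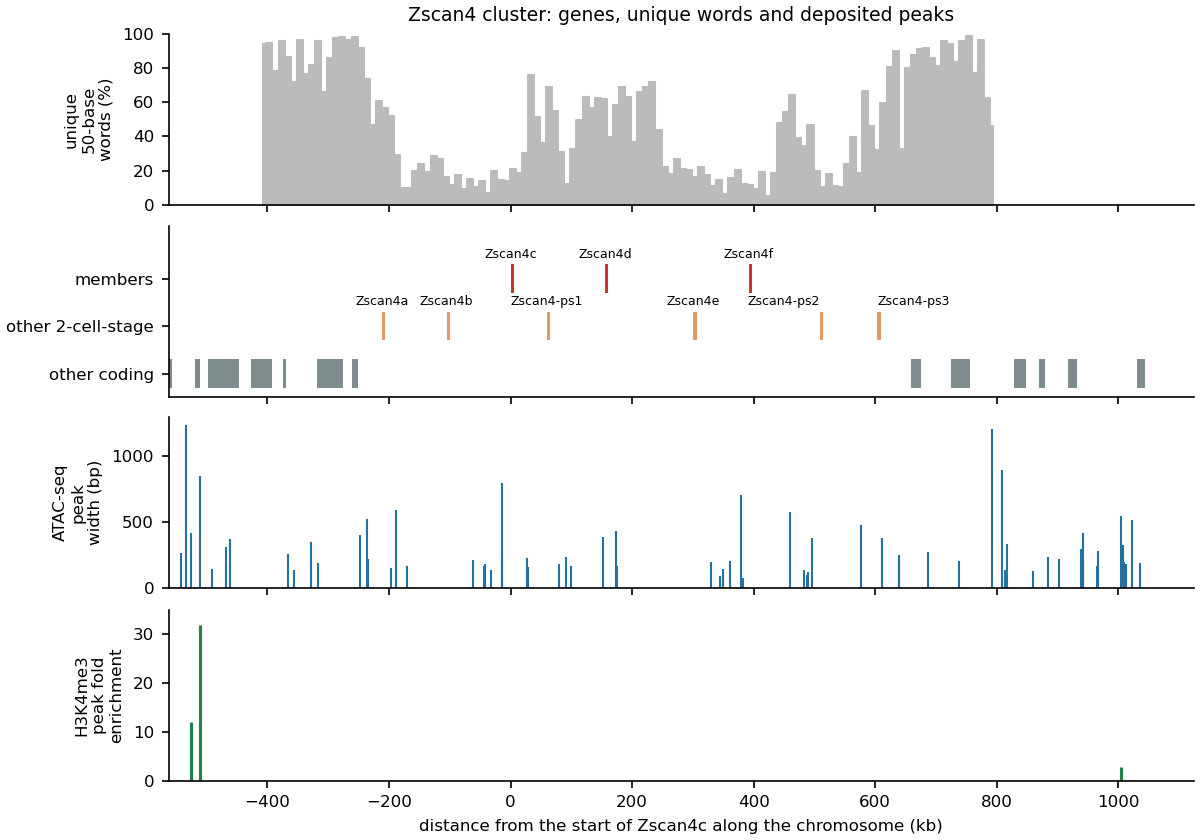
The Zscan4 cluster and its surroundings by distance in kb from the start of Zscan4c: percent of unique 50-base words in bins of 10 kb (counted only up to 200 kb beyond the cluster), genes (those too short to see are drawn at a minimum width), width in bp of each ATAC-seq peak, and fold enrichment of each H3K4me3 peak. No H3K4me3 peak lies between about 510 kb before and 1005 kb after the start of Zscan4c, while ATAC-seq peaks are spread through the cluster.

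ATAC-seq peaks were present in the Zscan4 cluster, outside the coding genes. With the flanks it held 36, or 39.1 per Mb against 75.5 per Mb over chromosome 7 and 67.5 over the genome. Their median width was 211 bp, against 261 bp for the whole list, and 0 lay in the body of a coding gene, while 7 overlapped annotated pseudogenes. Of the 36, 8 had at least 60% unique words and the median was 16.1%. Of those 8, 3 were the peaks nearest to Zscan4d. The peak chr7:11157970-11158361, downstream of its start, had 93.3% unique words. The peaks chr7:11179597-11180029 and chr7:11180146-11180315, which began 13438 and 13987 bp upstream, had 92.2% and 62.0%. Among the 3 Zscan4 members, Zscan4d was the one whose nearest peaks lay on the most unique sequence.

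**Figure D4:**
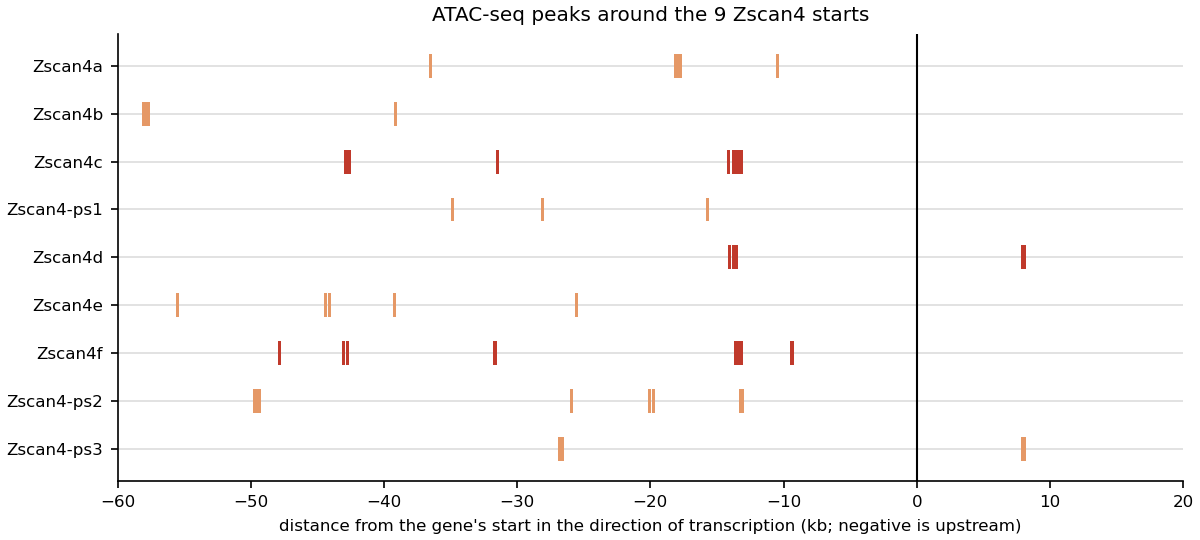
ATAC-seq peaks (bars, drawn at a minimum width) by distance in kb from the start of each of the 9 Zscan4 genes in the direction of transcription, members in red and the others in orange; a peak can appear beside more than 1 gene. No peak reaches a start, and within the range drawn Zscan4c and Zscan4f have 4 pairs of peaks at like distances upstream.

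Among upstream peaks that began no farther than 47891 bp from the start, 4 pairs fell at like distances before Zscan4c and Zscan4f. In that range the peaks without a like partner were those 14014 bp before Zscan4c and 9398 and 47891 bp before Zscan4f. Farther out, chr7:10944095-10944308 before Zscan4c and chr7:11336139-11336340 before Zscan4f also lay at like distances, both with 0.0% unique words. These were not aligned with each other. The widest of the pairs at Zscan4c, of 801 bp, reached from 13040 to 13840 bp before Zscan4c and lay in the transcribed pseudogene Gm7789. Before Zscan4f a peak of 706 bp reached from 13007 to 13712 bp and lay in the pseudogene Gm45598. All 706 bases of the latter aligned with the former, with 4 differences (99.4% identical). A peak of 383 bp from 12987 to 13369 bp before Zscan4-ps2 aligned with both, with 10 differences from each (97.4%). Only 20.9% of the words of the Zscan4c peak and 15.2% of those of the Zscan4f peak were unique, against 60.8% of the Zscan4-ps2 peak. Zscan4c and Zscan4f also shared 3 peaks farther out. The peaks 31446 bp before Zscan4c and 31583 bp before Zscan4f differed at 1 of 143 aligned bases, those 42560 and 42728 bp before at 0 of 141, and those 42842 and 43008 bp before at 1 of 144. Whether peaks on such copies stand for 1 open site or several was not tested. The pair of peaks 12 to 15 kb before Zscan4d was of other sequence: no more than 15 bases of either aligned with either peak in that range before Zscan4c, on either strand. The peak 7798 bp downstream of the Zscan4d start did have a partner, 7810 bp downstream of the start of Zscan4-ps3, with 346 of 357 aligned bases identical (96.9%) and 86.1% unique words in the partner.

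The middle 150 bases of the Zscan4-ps2 peak and the like bases of the peaks before Zscan4c and Zscan4f are shown so that the likeness can be seen. All lie on the plus strand, at chr7:10992439-10992588 for Zscan4c, chr7:11384647-11384796 for Zscan4f and chr7:11501057-11501206 for Zscan4-ps2. Capitals mark the bases that differ from the Zscan4c line.
Zscan4c peak: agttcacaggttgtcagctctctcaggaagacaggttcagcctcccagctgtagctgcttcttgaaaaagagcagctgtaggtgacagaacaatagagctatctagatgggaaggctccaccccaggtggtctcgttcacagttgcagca
Zscan4f peak: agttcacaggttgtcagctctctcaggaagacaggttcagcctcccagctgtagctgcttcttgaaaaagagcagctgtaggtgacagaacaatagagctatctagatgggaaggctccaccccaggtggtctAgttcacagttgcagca
Zscan4-ps2 peak: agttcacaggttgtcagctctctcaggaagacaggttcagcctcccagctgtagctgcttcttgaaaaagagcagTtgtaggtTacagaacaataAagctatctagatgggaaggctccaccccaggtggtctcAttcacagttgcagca
Zscan4f differed from Zscan4c at 1 of the 150 bases, and Zscan4-ps2 at 4.

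The Tcstv cluster, from Tcstv1 to Tcstv3 (chr13:119893388-120318178), spans 425 kb at the end of chromosome 13 and had 26.6% unique words with its flanks. In mm10 46539 of its bases with flanks are unknown. It held 3 H3K4me3 peaks, 6.27 per Mb of known sequence against 12.4 per Mb over chromosome 13. All 3 were below the medians of their list, a fold enrichment of 8.93 and a width of 1135 bp. The peak chr13:119966066-119966424 had a fold enrichment of 6.02 and 47.1% unique words. The peak chr13:120046370-120046877, in the coding gene Gm21188 and the pseudogene Gm31544, had 5.44 and 47.5%. The peak chr13:120313318-120313735, which ended 3143 bp before the start of Tcstv3, had 4.82, a −log10 q of 16.2 and 100% unique words. A lower fold enrichment was given to 33.6% of the H3K4me3 list. All 3 overlapped ATAC-seq peaks. The ATAC-seq peak that overlapped the peak before Tcstv3, chr13:120313661-120314029, was the one 2849 bp from that gene and also had 100% unique words. Just upstream of Tcstv3, then, peaks of both kinds lay on unique sequence, outside the window of 2 kb. The stretch between the H3K4me3 peaks on either side of Tcstv1 ran for 173721 bp, and 9.01% of the stretches in the genome were longer. No H3K4me3 peak follows Tcstv3 on its chromosome, so no such stretch was measured for it. The 3 nearest coding genes before the cluster were Zfp131, AF067063 and D13Ertd608e. Zfp131, with 99.0% unique words, had both peaks at the start, the H3K4me3 peak at a fold enrichment of 41.1. D13Ertd608e (31.8%) had ATAC-seq peaks only, and AF067063 (34.5%) had neither.

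The cluster with its flanks held 38 ATAC-seq peaks, 79.5 per Mb of known sequence against 68.4 over the chromosome, so it was not poor in them as the Zscan4 cluster was. Their median unique share was 9.78%, and only the peak before Tcstv3 had at least 60%. The rate per Mb therefore rests on sequence that occurs more than once. The peak at Tcstv1 was chr13:119895333-119895561, of 229 bp and with 20.6% unique words, and it lay 548 to 776 bases before the start. It is shown because it was the only peak at the start of a member, read on the minus strand as the gene is.
Tcstv1 peak: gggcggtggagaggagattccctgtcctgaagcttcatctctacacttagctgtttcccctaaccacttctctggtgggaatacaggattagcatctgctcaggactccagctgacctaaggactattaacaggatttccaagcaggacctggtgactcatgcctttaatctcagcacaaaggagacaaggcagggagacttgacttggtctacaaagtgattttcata
Of this peak 225 bases aligned with a stretch of 237 bases, 551 to 787 before Tcstv3. Of the aligned bases 223 were identical (99.1%), with gaps not counted. The list has a peak on this sequence at Tcstv1 and none on the copy at Tcstv3. The copies differed at 2 of the aligned bases and by gaps, and which copy was open was not tested.

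**Figure D5:**
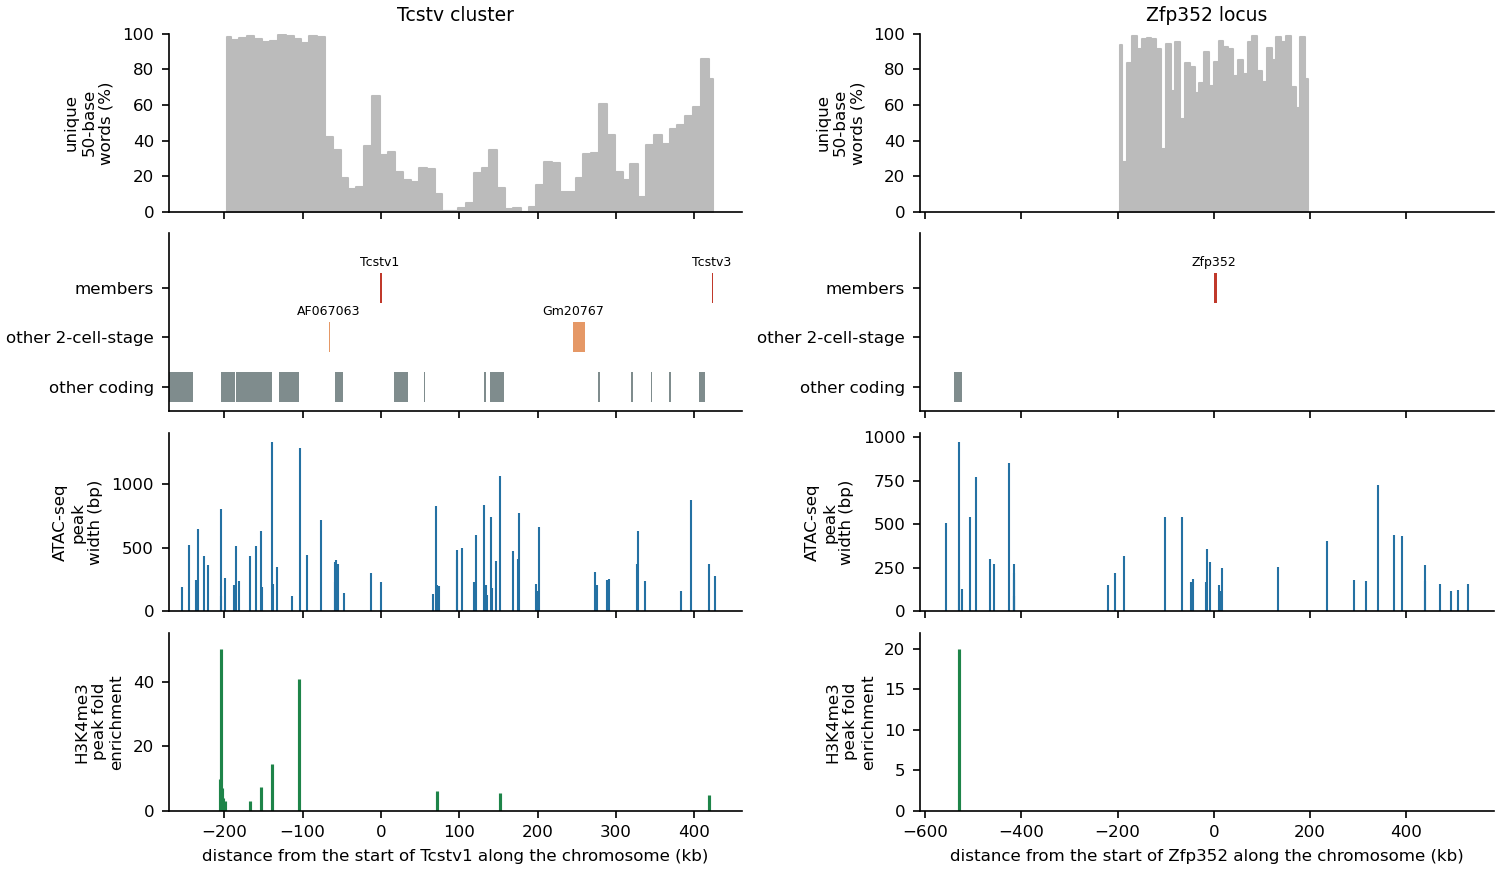
The Tcstv cluster (left, by distance in kb from the start of Tcstv1) and the Zfp352 locus (right, from the start of Zfp352): percent of unique 50-base words in bins of 10 kb (counted only up to 200 kb beyond), genes at a minimum width, width in bp of each ATAC-seq peak and fold enrichment of each H3K4me3 peak. In the left panel 3 low H3K4me3 peaks lie between the Tcstv genes, and others, some of them higher, lie to the left of Tcstv1. In the right panel the nearest is 529 kb away.

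Zfp352 (chr4:90218820-90225702) stands alone and has the most unique sequence of the members, 82.2% over the locus with 50 kb on either side. It held 0 H3K4me3 peaks and 8 ATAC-seq peaks, 74.8 per Mb against 75.2 over chromosome 4. All 8 had at least 60% unique words. The nearest, chr4:90211520-90211803, lay 7017 bp upstream and had 100% unique words. The stretch between the H3K4me3 peaks on either side of Zfp352 ran for 1614362 bp (1.61 Mb). In the genome 158 stretches were longer (0.473%), again a share of stretches and not of bases or genes. Zfp352 was the 1 coding gene that started in its stretch. The stretch held 56 ATAC-seq peaks. The H3K4me3 peak at its near end lay in Dmrta1, a neighbour with the mark in its body but not at its start. Of the 6 nearest coding genes, Cdkn2a, Cdkn2b and Elavl2 had both peaks at the start, while Dmrta1, Izumo3 and Gm12666 had neither.

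Other genes of the 2-cell stage were read in the same way, from a list of 30 that included Zscan4a, Zscan4b and Zscan4e. H3K4me3 was found at the start of 2 of the 30, against 66.4% of coding genes, and ATAC-seq peaks at 11 of the 30, against 74.6%. The 2 genes with H3K4me3 also had ATAC-seq peaks. They were Duxf3, which encodes Dux, with a peak of 4.18-fold enrichment 475 bp from its start and 34.5% unique words, and Arg2, a mitochondrial arginase, with a peak of 14.3-fold enrichment over its start. The others with an ATAC-seq peak were Sp110, Tdpoz2, Tdpoz4, Usp17la, Usp17lb, Gm8300, Gm4027, BB287469 and Gm5662. Usp17la and Usp17lb, which encode deubiquitinases, had 90.5% and 89.5% unique words. Tdpoz2 and Tdpoz4, which encode proteins with a POZ domain, had 79.6% and 60.7%. Gm8300 had 65.7%, Gm5662 25.9%, Sp110 16.2%, and BB287469 and Gm4027 10.7% each. The median unique share over the list was 45.9%.

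Genes known to control the 2-cell-like state mostly carried both peaks. Of 12, 11 had H3K4me3 at the start and 12 had an ATAC-seq peak, against 66.4% and 74.6% of coding genes. They were Dppa2 and Dppa4, which activate Dux, the chromatin assembly factor genes Chaf1a and Chaf1b, the demethylase gene Kdm1a, Setdb1 and Ehmt2, which encode histone H3 lysine 9 methyltransferases, and Rif1, Zmym2, Smchd1 and Ncl. For Trim28, the corepressor gene without H3K4me3 at the start of its record, the nearest peak lay 6624 bp away inside the gene. Their unique shares ran from 64.6 to 100%.

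The label of the cells was checked against markers at the start. Of 8 ES cell markers (Pou5f1, Nanog, Sox2, Zfp42, Esrrb, Klf4, Tfcp2l1 and Dppa5a), 7 had H3K4me3 and 8 had an ATAC-seq peak. Of 8 fibroblast markers (Col1a1, Col1a2, Col3a1, Thy1, Pdgfrb, Postn, Dcn and Lum), 5 had H3K4me3 and 7 an ATAC-seq peak. Over all coding genes the shares were 66.4% and 74.6%. These marker counts do not show how far the lists hold feeder cells, and the part of feeder cells in the lists was not tested.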

How the data were processed

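H3K4me3 ChIP-seq and ATAC-seq peaks of F123 mESCs were used, 1 list each for 2 replicates. Per the labels, positions are in mm10. H3K4me3 peaks came from the ENCODE histone ChIP-seq pipeline, run by the authors with its defaults. Its deposited columns hold positions, summits, a score, a fold enrichment (a ratio) and −log10 p-values and q-values. For ATAC-seq the authors aligned with Bowtie 1.1.2, shifted reads by 4 bp, called peaks with MACS2 2.1.1.20160309 and kept pooled peaks found in both replicates, using SAMtools and bedtools 2.27.1. The deposited list has positions only. Neither list holds counts, so depth is unknown. PLAC-seq and input samples were not analysed here, and sequence directly before the start of Tcstv3 is not reported here.

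Starts are the 5′ ends of GENCODE M21 gene records. A peak counted when it shared at least 1 bp with the window. Words of 50 bases were counted on both strands of the mm10 primary assembly (66 sequences, 2730871774 bases). Every word was taken for the members, the Zscan4 genes, the other listed 2-cell-stage genes, the clusters and the peaks. For other coding genes, and for medians and classes over all coding genes, every 20th was taken. Alignments were made with Biopython 1.88, global with free ends for the printed stretches and whole genes and local otherwise. Percent identity is over aligned bases and does not count gaps. Intervals are 95% Wilson intervals. The word counting and the overlaps were tested on simulated data, and bedtools 2.31.1 gave the same 14576 and 16366 coding genes. Tables, word counts and figures were made in Python 3.11.15 with pandas 2.3.3, numpy 2.4.6, numba 0.67.0 and matplotlib 3.10.9. The members and lists were chosen with earlier results of these data known. The text names all members, all other Zscan4 genes, the 3 nearest coding genes beyond each side of a cluster (none follow the Tcstv cluster), listed genes with a peak at the start, and markers. The like distances of ATAC-seq peaks, the stretches without H3K4me3, the CpG class and the words searched were chosen after values were seen. Alternatives were other windows, starts, overlaps, flanks, peak thresholds and word lengths.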

Additional observations from a re-analysis of the deposited data

How the results depend on the processing

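No paired analysis was possible because a single list covers both replicates of an assay, and for the same reason no replicate could be left out. Of 50 alternatives, 20 left a count within 1.5 times its value or a share of genes within its 95% interval. The other 30 were counted as moved. They include every share of unique words at another word length, for which no interval is given. The count of members with H3K4me3 at the start stayed 0 except with a window of 5 kb, where it was 1 (Tcstv3). The count with an ATAC-seq peak, 1, became 2 at 5 kb (Tcstv1 and Tcstv3) and 0 among peaks of at least 261 bp, the widest 50%. The share of coding genes with H3K4me3, 66.4%, was 65.2% at 1 kb, 69.3% at 5 kb, 69.6% from the start of any transcript and 65.1% by the midpoint of the peak. The share with an ATAC-seq peak, 74.6%, was 71.0%, 81.3%, 77.9% and 73.9% under the same settings and 69.9% with the widest 50%. With flanks of 200 kb the Tcstv cluster held 9 H3K4me3 peaks and 58 ATAC-seq peaks in place of 3 and 38. With the widest 50% the ATAC-seq peaks were 11 in the Zscan4 cluster, 20 in the Tcstv cluster and 2 at Zfp352, which had 0 without a flank. Smaller changes were not counted as moved. They were 30 ATAC-seq peaks in the Zscan4 cluster and 35 in the Tcstv cluster without flanks, and 44 in the Zscan4 cluster and 12 at Zfp352 with flanks of 200 kb. The share with H3K4me3, 66.2% at a −log10 q of at least 5, was also not counted as moved. Unique shares with words of 36 and 100 bases were 11.2% and 37.7% for Zscan4c, 43.7% and 85.8% for Zscan4d, 10.8% and 30.1% for Zscan4f, 39.3% and 80.7% for Tcstv1, 46.1% and 86.2% for Tcstv3, and 65.2% and 95.2% for Zfp352. Longer words are unique more often by construction. Since depth is unknown, a missing peak says only that none was called.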

Other observations

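TGATTNAATCA stood in the 500 bases before the start of 11 coding genes outside the Zscan4 family. Of these, 3 had both peaks at the start, as 65.9% of coding genes did: Pcgf1, a Polycomb group gene, Psap, which encodes prosaposin, and Tbc1d23. The other 8, Gm6351, Gm7942, Gm7982, Olfr104-ps, Ripor2, Slco6c1, Ugt2b38 and Wfdc16, had neither peak, as 24.9% of coding genes did. All 8 Zscan4 genes with these letters had neither peak. Zscan4a, annotated as an unprocessed pseudogene, was the 1 Zscan4 gene of 9 without them in this window. These genes were named after their values were seen.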
